A study of Homo sapiens with 6 samples.

Results

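The 9 core genes of the Hedgehog pathway were followed in EJ bladder cancer cells with and without knockdown of STIL. They were SHH, PTCH1, HHIP, SMO, GPR161, SUFU, GLI1, GLI2 and GLI3 and were taken by gene symbol. All 9 had a row among the 15953 genes measured in every library.

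Hedgehog signaling starts when a ligand such as SHH binds PTCH1, a membrane receptor that otherwise holds SMO inactive. In most vertebrate cells the pathway runs through the primary cilium, where active SMO accumulates, GPR161 leaves and the GLI transcription factors escape from SUFU and from phosphorylation by protein kinase A. GLI2 acts mainly as an activator and GLI3 mainly as a repressor, while GLI1 is an activator that is itself a target of the pathway, as are PTCH1 and HHIP. STIL is a centriole duplication protein, and its loss in the mouse embryo impairs Hedgehog signaling.

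RNA-seq covered 6 libraries of EJ, an established line labelled as bladder cancer, with 3 libraries of cells carrying a negative control lentivirus (shNC) and 3 of cells carrying a lentivirus against STIL (shSTIL). Both groups were stable lines of the same cells, no drug, ligand or time course was named for them, and although the study lists siRNAs against STIL, which sequence the lentivirus carried was not given in the sources used here. The labels call the samples shNC and shSTIL, whereas the series' design text writes siNC and siSTIL for the same comparison. The labels number the replicates but do not say that they were separate cultures, so p-values measure only the spread between these libraries, which may be technical.

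Each library held 16214772 to 16901634 reads assigned to genes, the shNC libraries at most 16431243 and the shSTIL libraries at least 16734469. STIL itself was at 5.98, 6.10 and 6.01 log2 CPM (reads scaled to library size, on a log2 scale) in shNC replicates 1, 2 and 3 and at 4.05, 4.06 and 4.01 in shSTIL replicates 1, 2 and 3. The knockdown was thus present in every library labelled shSTIL, with a log2 fold change of -1.99 ± 0.05 (SE; adjusted p = 6.1e-12, limma) and 25.2% of the control level left. The epithelial keratins KRT7, KRT8 and KRT18 were abundant, whereas KRT5, KRT20 and CDH1 were at 3 reads or fewer in every library, and KRT19 and UPK3A had no row. Of 6 immune markers 3 had no row, among them PTPRC and CD3E, and the other 3 summed to 11.4 to 12.2 CPM in shNC and 13.2 to 15.0 CPM in shSTIL, mostly CD68. Of 13 epithelial and urothelial markers with a row 4 were called (30.8%, against 47.1% of all genes), KRT7 and PPARG higher and KRT8 and UPK1B lower, and the sum of all 13 was 1095 to 1155 CPM in shNC and 992 to 1025 CPM in shSTIL. Mesenchymal markers summed to 1562 to 1603 and 969 to 988 CPM, with 2 of 4 called, VIM and FN1, both lower. Fibroblast markers with a row summed to 2.64 to 4.11 and 1.94 to 2.22 CPM, with 1 of 2 called, COL1A1, lower. Each of these shares was 50%, beside 47.1% of all genes. Endothelial markers summed to 0.581 to 0.981 CPM over all libraries with none called. The part of these marker lists in the results was not tested. Proliferation genes moved with the groups: 14 of 14 listed genes were called lower, beside 23.6% of all genes. Their sum went from 4284 to 4321 CPM in shNC to 2007 to 2075 CPM in shSTIL, and their part in the results below was not tested. In bulk RNA, fewer cells that express a gene and less RNA of it per cell cannot be told apart.

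In shSTIL cells 4 of the 9 core genes were lower than in shNC cells (adjusted p under 0.01, limma over all genes): GLI1, GLI2, PTCH1 and SMO. None was higher. In this fit the share called was close to that of the whole transcriptome, since 47.1% of all genes were called, 23.6% as lower and 23.5% as higher. That share includes genes with few reads. In a fit restricted to genes whose mean reached 1 log2 CPM, 7448 of 11319 genes were called. GLI1 and HHIP were left out of that fit. Of the core genes that remained, 3 were called (PTCH1, SMO and GLI2), and SHH, GPR161, SUFU and GLI3 were not. The share of core genes called was thus below that of all genes in this fit. GLI1 stood out by size: it was the gene with the 17th largest fall among 15953, GLI2 was at rank 441, PTCH1 at rank 2356 and SMO at rank 4715. The median log2 fold change was -0.22 over the 9 genes, the value of SMO, and 0.01 over all genes. The former counts HHIP, which had too few reads for a fold to be given. SUFU was also lower in every shSTIL library than in any shNC library, so that 5 of the 9 genes had no overlap between the groups in that direction, against 30.5% of all genes.

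**Figure D1:**
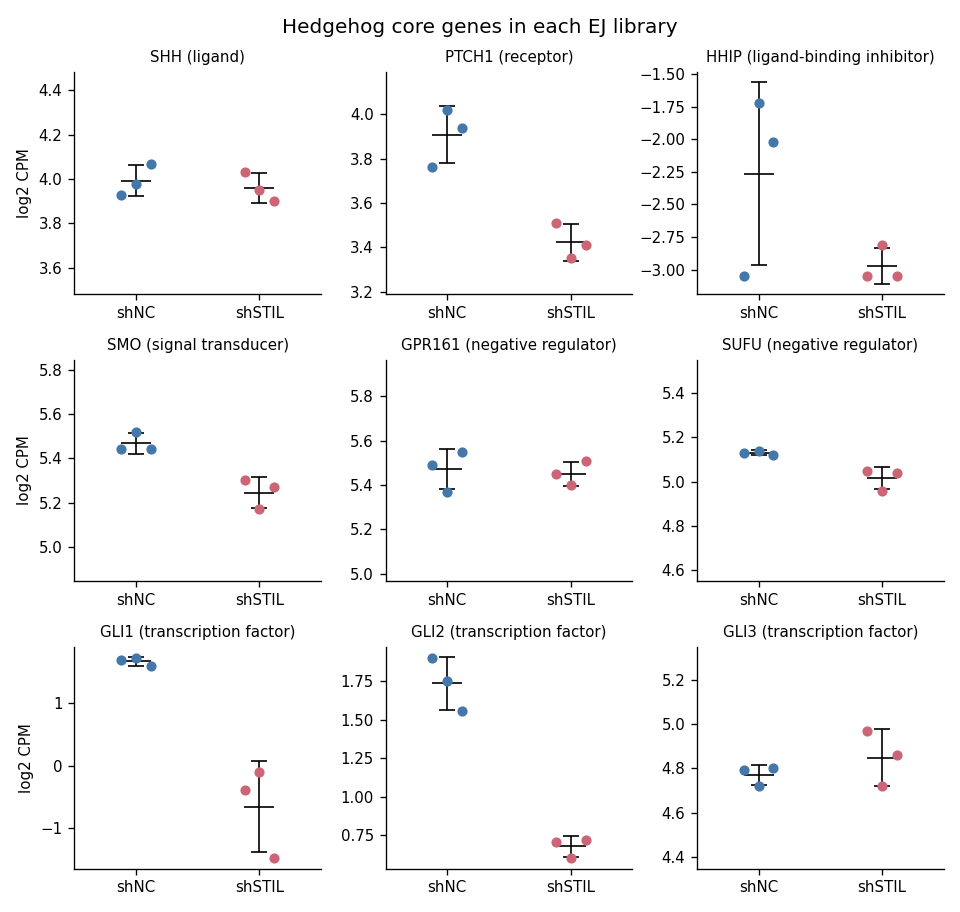
Level of each core gene in log2 CPM (y axis, with its own range in each panel) in the shNC and shSTIL libraries (x axis), with 1 point per library and black bars for the mean and SD of each group. GLI1, GLI2, PTCH1, SMO and SUFU separate the groups, GLI1 by the most, whereas SHH, GPR161, GLI3 and HHIP overlap.

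The ligand SHH, at the head of the pathway, did not pass the test. SHH (chromosome 7, 155799986 to 155812273, minus strand, GRCh38 with GENCODE 29, the annotation used for all gene positions here) was at 3.93, 3.98 and 4.07 log2 CPM in shNC replicates 1, 2 and 3 and at 4.03, 3.95 and 3.90 in shSTIL replicates 1, 2 and 3. The libraries of the groups interleaved, with 242 to 265 reads in shNC and 251 to 278 in shSTIL. The log2 fold change was -0.03 with a 95% interval of -0.20 to 0.13 (adjusted p = 0.738, limma).

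PTCH1, the receptor (chromosome 9, 95442980 to 95517057, minus strand), was at 3.76, 4.02 and 3.94 log2 CPM in shNC and at 3.51, 3.35 and 3.41 in shSTIL. All 3 shSTIL libraries were below all 3 shNC libraries, and shNC replicate 1 was the control nearest to them. The log2 fold change was -0.49 ± 0.09 (SE; 95% interval -0.69 to -0.29; adjusted p = 0.00048, limma), which left 71.4% of the control level. As summed reads, 721 became 544. Scaled to library size this was 71.0%, with an exact 95% interval of 63.4 to 79.5% that covers counting error only. The call was lost, with an adjusted p of up to 0.0206 (limma), when shNC replicate 2, shNC replicate 3, shSTIL replicate 2 or shSTIL replicate 3 was left out, while the log2 fold change stayed between -0.56 and -0.43. An antisense gene, AL161729.1, shares 4.29% of the exon bases of PTCH1, and the strandedness of the libraries was not given in the sources used here.

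HHIP binds Hedgehog ligands at the cell surface and keeps them from PTCH1. It (chromosome 4, 144646021 to 144745271, plus strand) was close to undetected, with 0, 3 and 2 reads in shNC and 0, 0.38 and 0 estimated reads in shSTIL. These counts lay at or under the floor of 3 reads per library, so no fold is given. The adjusted p was 0.1 (limma), and of the settings run it passed the threshold only when shNC replicate 1, the control library with 0 reads, was left out (0.00512).

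SMO, the membrane protein that passes the signal on (chromosome 7, 129188872 to 129213545, plus strand), was at 5.44, 5.52 and 5.44 log2 CPM in shNC and at 5.30, 5.17 and 5.27 in shSTIL. The groups did not overlap, but the gap between the lowest shNC and the highest shSTIL library was small beside that of GLI1. The log2 fold change was -0.22 ± 0.05 (SE; 95% interval -0.33 to -0.11; adjusted p = 0.00208, limma), so 85.8% of the control level was left. This call was lost when any 1 of the 6 libraries was left out (adjusted p = 0.0149 to 0.0249, limma) and in the fit without a mean-variance trend (0.0176), with log2 fold changes between -0.25 and -0.18 when 1 library was left out. AC011005.4 on the opposite strand shares 2.99% of the exon bases of SMO.

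Neither of the negative regulators below SMO passed the test. GPR161, a ciliary receptor that keeps cyclic AMP and protein kinase A activity high (chromosome 1, 168079543 to 168137667, minus strand), was at 5.49, 5.37 and 5.55 log2 CPM in shNC and 5.45, 5.40 and 5.51 in shSTIL. Its groups overlapped throughout, with a log2 fold change of -0.02 and a 95% interval of -0.14 to 0.10 (adjusted p = 0.774, limma). SUFU, which binds GLI proteins in the cytoplasm (chromosome 10, 102503987 to 102633535, plus strand), was at 5.13, 5.14 and 5.12 in shNC and 5.05, 4.96 and 5.04 in shSTIL. Each shSTIL library of SUFU was lower than each control. The log2 fold change of -0.11 ± 0.05 (SE) did not pass the threshold (adjusted p = 0.0698, limma), and an exact permutation test (two-sided) could not go below p = 0.1 with 3 libraries against 3, the value it gave.

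**Figure D2:**
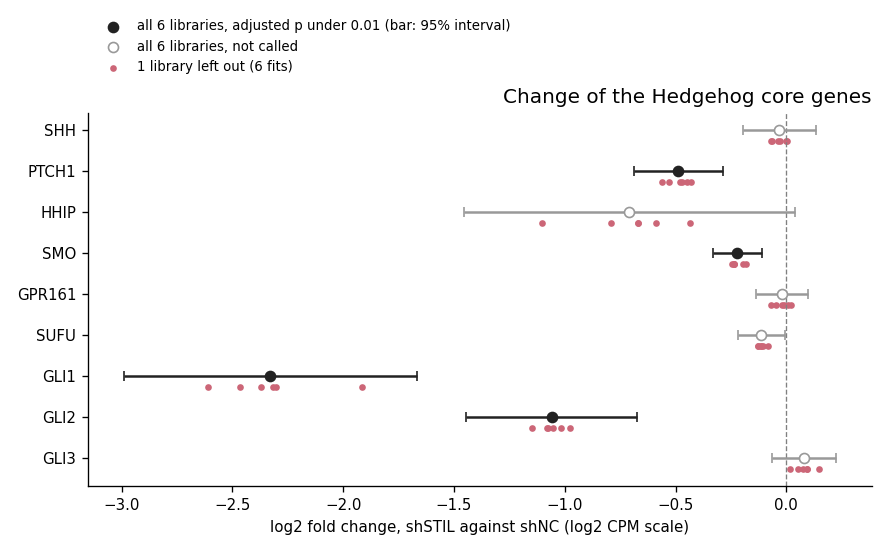
Log2 fold change (shSTIL minus shNC, x axis) of each core gene from the limma fit, with its 95% interval as a line, filled where the gene was called, and the values from the 6 fits with 1 library left out as small points below it. The intervals of GLI1, GLI2, PTCH1 and SMO lie below 0 and those of SHH, GPR161, HHIP and GLI3 cross it, while that of SUFU, which was not called, ends just below it.

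The 3 GLI transcription factors behaved unequally. GLI1 (chromosome 12, 57460135 to 57472262, plus strand), the activator that is also used as a readout of the pathway, was at 1.69, 1.73 and 1.59 log2 CPM in shNC and at -0.39, -0.10 and -1.49 in shSTIL. These levels rest on 50, 52 and 46 reads in shNC and on 11, 14 and 4 reads in shSTIL. The control libraries lay close together, the shSTIL libraries were all far below them, and shSTIL replicate 3 was the lowest. The log2 fold change was -2.33 ± 0.31 (SE; 95% interval -2.99 to -1.67; adjusted p = 2.02e-05, limma), which left 19.9% of the control level. Summed reads fell from 148 to 29, or to 18.4% after scaling to library size (exact 95% interval 11.9 to 27.6%, counting error only). Among all called genes, 15 fell at least as much, GLI1 included. The call of GLI1 was lost when any 1 of the 3 shNC libraries was left out (adjusted p of up to 0.0123, limma), whereas edgeR on all 6 libraries gave a log2 fold change of -2.42 and an adjusted p of 3.33e-09.

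GLI2 (chromosome 2, 120735623 to 120992653, plus strand) was at 1.90, 1.75 and 1.56 log2 CPM in shNC and at 0.71, 0.60 and 0.72 in shSTIL, from 45 to 58 reads and 24 to 26 reads. Every shSTIL library was well below the lowest control, and the shSTIL libraries were nearly equal. The log2 fold change was -1.06 ± 0.18 (SE; 95% interval -1.44 to -0.67; adjusted p = 0.000176, limma). Summed reads went from 156 to 76, or to 45.8% after scaling to library size (exact 95% interval 34.4 to 60.7%). GLI2 was the only one of the 4 called core genes whose call held in all 6 fits that left out 1 library, with log2 fold changes of -1.15 to -0.98 and an adjusted p of at most 0.00515 (limma).

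GLI3 (chromosome 7, 41960950 to 42237870, minus strand), which serves mainly as the repressor, was at 4.79, 4.72 and 4.80 log2 CPM in shNC and at 4.97, 4.72 and 4.86 in shSTIL. The groups overlapped, with shSTIL replicate 2 at the level of the lowest control. GLI3 had a log2 fold change of 0.08 with a 95% interval of -0.07 to 0.23 (adjusted p = 0.348, limma).

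The unequal change of the members was also read within each library, where differences in scaling cancel. The pairs of genes were chosen after their values had been seen, so their differences are a description with no test. The log2 CPM of GLI1 minus that of GLI3 was -3.10, -2.99 and -3.21 in shNC and -5.36, -4.81 and -6.35 in shSTIL, a change of -2.41. GLI2 minus GLI3 went from -2.89, -2.96 and -3.24 to -4.26, -4.12 and -4.14, a change of -1.14. In both cases all shSTIL libraries lay apart from the controls. GLI1 minus GLI2 changed by -1.27, and by -0.83 without shSTIL replicate 3, in which GLI1 had 4 reads. PTCH1 minus SMO changed by -0.27.

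Levels of different genes were compared as CPM per kilobase of the longest coding transcript. In shNC the order from highest to lowest was SMO (11.8 ± 0.392, SD, n = 3), SUFU (6.98), GPR161 (5.36), SHH (3.55), GLI3 (3.31), PTCH1 (1.81), GLI1 (0.849), GLI2 (0.475) and HHIP (0.0102). No neighbours in this order overlapped in their ranges over the 3 libraries, although SHH and GLI3 were close. In shSTIL GLI3 (3.50) and SHH (3.47) overlapped, as did GLI2 (0.218) and GLI1 (0.156), so those neighbours could not be ordered. With the union of all annotated exons as the length, the order in shNC was the same, but PTCH1 went from 1.81 to 0.900 and so lay closer to GLI1 (0.729), still without overlap. In shSTIL PTCH1 went from 1.29 to 0.639, and SHH (3.07) lay above GLI3 (2.63) without overlap.

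**Figure D3:**
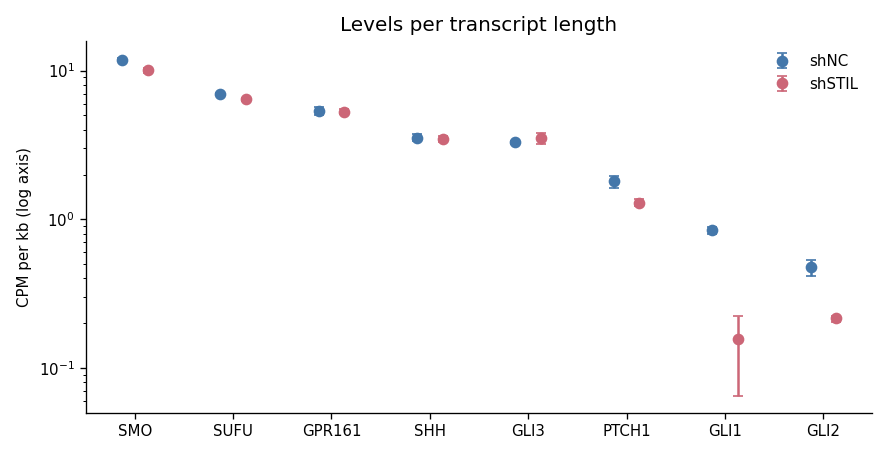
CPM per kilobase of the longest coding transcript (y axis, log scale) for 8 core genes (x axis, HHIP left out), with the mean of each group as a point and the lowest and highest of its 3 libraries as bars. SMO is highest at 11.8 in shNC and 10.1 in shSTIL, and GLI1 goes from 0.849 to 0.156.

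PTCH1 and GLI2 carry a match to the binding motif of GLI proteins next to a RefSeq transcript start, and these promoters are shown because both genes fell. RefSeq promoters (GRCh38.p14, 250 bases before to 50 after a start) were found for 7 of the 9 core genes. They were searched on both strands for the GLI consensus GACCACCCA and for its 7-base core CCACCCA, which lies inside the consensus. The first sequence is one of the 5 PTCH1 starts in the table (chr9:95509217-95509516, minus strand) and the second one of the 2 GLI2 starts (chr2:120735618-120735917, plus strand), both written 5′ to 3′ on the strand of the gene with the match in capitals.
PTCH1: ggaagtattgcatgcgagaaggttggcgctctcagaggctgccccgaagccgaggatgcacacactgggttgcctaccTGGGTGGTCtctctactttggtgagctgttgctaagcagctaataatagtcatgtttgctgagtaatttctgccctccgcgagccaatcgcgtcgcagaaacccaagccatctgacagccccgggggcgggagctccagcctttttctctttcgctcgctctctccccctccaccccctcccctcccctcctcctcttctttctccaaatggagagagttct
GLI2: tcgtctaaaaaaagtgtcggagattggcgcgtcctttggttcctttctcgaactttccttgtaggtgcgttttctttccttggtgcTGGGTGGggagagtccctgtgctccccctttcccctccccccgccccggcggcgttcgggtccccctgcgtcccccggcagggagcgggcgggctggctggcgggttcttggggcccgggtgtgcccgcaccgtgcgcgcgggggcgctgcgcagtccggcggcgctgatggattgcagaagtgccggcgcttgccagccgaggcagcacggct
The PTCH1 sequence holds the reverse complement of the 9-base consensus, from 172 to 164 bases before the start. The GLI2 sequence holds the reverse complement of the 7-base core only, from 164 to 158 bases before the start. No match was found in the windows of SHH, HHIP, SMO, GPR161 or SUFU or at the other starts of PTCH1 and GLI2, and the table has no entry for GLI1 or GLI3.

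Across the genome the 9-base consensus lay in the promoters of 81 of 27305 genes (0.297%) and the 7-base core in those of 3005 (11.0%). Of the genes measured here, 42 held the consensus, PTCH1 among them, and 9 of these were called lower (21.4%) and 11 higher (26.2%). The 9 became 5 without shNC replicate 2, without shNC replicate 3 or without shSTIL replicate 3, fits in which calls over all genes also fell. Over the 12621 measured genes with a promoter in the table, 24.3% were lower and 24.1% higher. With the 7-base core, 23.3% of 1592 genes were lower and 24.4% higher. Genes with a match in these windows therefore showed about the same shares as genes in general. A match is a description of letters and not of binding.

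Among the other genes of the pathway, 101 of 108 listed had a row, and 51 of them (50.5%) were called, 29 higher and 22 lower, beside 47.1% of all genes. Their median log2 fold change was 0.02. Thus the list as a whole did not share the direction of the 4 called core genes, and its roles were examined 1 by 1. In the fit restricted to genes whose mean reached 1 log2 CPM, 53 listed genes and 7448 of 11319 genes were called. Fewer than the 101 listed genes reached that level, so the 53 are not a share of 101. Both shares called were higher there than the 50.5% and 47.1% above. The shares by role below are therefore to be read beside the levels of the genes.

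**Figure D4:**
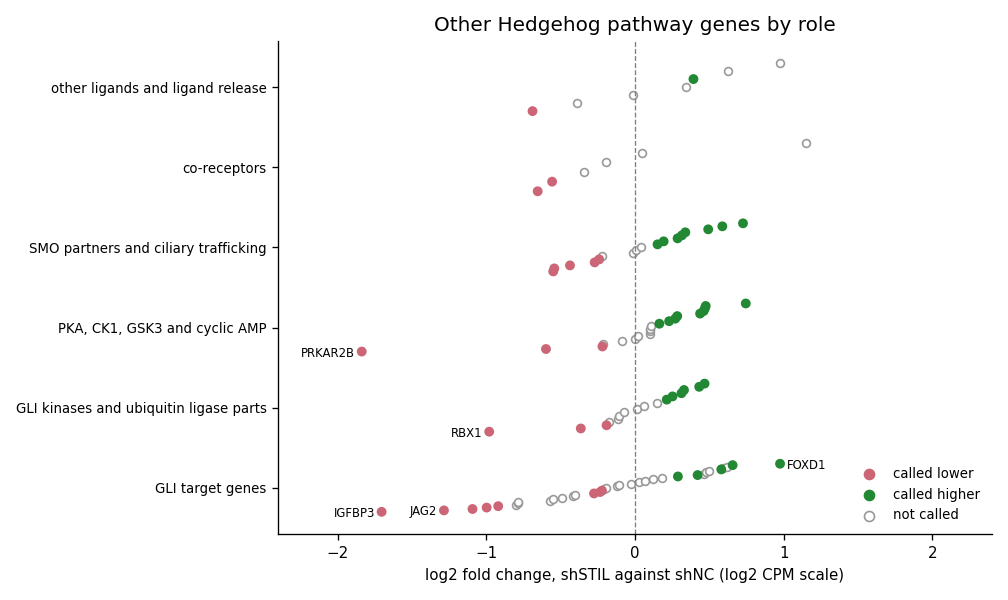
Log2 fold change (shSTIL minus shNC, x axis) of the other pathway genes by role (y axis), with 1 point per gene, coloured where called. Points lie on both sides of 0 in every role, with PRKAR2B farthest to the left at -1.84.

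Of the 7 genes for the other ligands and for ligand release, 1 rose and 1 fell (28.6% called, beside 47.1% of all genes). The former was DISP1, named here after its values were seen, with a log2 fold change of 0.39 (adjusted p = 0.00226, limma). The latter was DISP2, a relative of the ligand-releasing transporter DISP1, with 270 to 278 reads in shNC, 173 to 188 in shSTIL and a log2 fold change of -0.69 ± 0.08 (SE; adjusted p = 5.59e-06, limma). The estimated counts share reads between similar transcripts, which leaves paralogues uncertain where their sequences are alike.

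Of the 6 co-receptors with a row, 2 fell and none passed the test as higher (33.3% called, beside 47.1% of all genes). BOC, a relative of CDON named here after its values were seen, had the largest log2 fold change of the 6, 1.15 (95% interval 0.36 to 1.94), with 2 to 9.11 reads in shNC and 8.23 to 14.97 in shSTIL. Its groups overlapped and it missed the threshold (adjusted p = 0.0158, limma). Those that fell were GPC4, a cell-surface proteoglycan (log2 fold change -0.65, adjusted p = 0.00059, limma), and CDON, which binds ligand together with PTCH1 (-0.56, adjusted p = 0.00916, limma). Both calls were fragile. GPC4 lost its call in 4 and CDON in 5 of the 6 fits that left out 1 library, and CDON also lost it in DESeq2 (adjusted p = 0.0104), under quantile normalization (0.0242) and without a mean-variance trend (0.0455).

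SMO partners and ciliary trafficking genes had the highest share of calls by role, 13 of 17 (76.5%, beside 47.1% of all genes), with 8 higher and 5 lower. All 17 had at least 123 reads in every library, whereas other roles held genes near the floor. The order of the roles was not adjusted for level. EVC, which binds SMO at the base of the cilium, rose by 0.73 ± 0.09 (log2 fold change, SE; adjusted p = 1.42e-05, limma). MOSMO, which lowers the amount of SMO at the cell surface, rose by 0.59 ± 0.07 (adjusted p = 1.19e-05, limma). The arrestins ARRB1 and ARRB2, which bind active SMO, fell by 0.54 and 0.55 on the log2 scale (adjusted p = 2.93e-06 and 5.26e-08, limma). EVC, which takes part in the signal, and MOSMO, which dampens it, thus rose together.

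Genes of protein kinase A, casein kinase 1, GSK3 and cyclic AMP were called in 12 of 20 cases (60%, beside 47.1% of all genes), 9 higher and 3 lower. PRKACA, a catalytic subunit of protein kinase A, was at 6.98, 6.88 and 6.89 log2 CPM in shNC and 6.27, 6.38 and 6.31 in shSTIL. The groups were well apart, and the log2 fold change was -0.60 ± 0.04 (SE; adjusted p = 4.06e-08, limma). PDE4D, which degrades cyclic AMP, rose by 0.75 ± 0.08 (adjusted p = 1.6e-06, limma). PRKAR2B, a regulatory subunit, changed by -1.84 (log2; adjusted p = 0.000677, limma) from 16 to 20 reads in shNC and 1 to 8 in shSTIL. Its call was lost when shSTIL replicate 2 or any 1 of the shNC libraries was left out, and without a mean-variance trend. Of the 16 GLI kinases and ubiquitin ligase parts, 6 rose and 3 fell (56.25% called). RBX1, the RING subunit of the cullin ligases that process GLI proteins, fell the most, by 0.98 on the log2 scale (adjusted p = 7.99e-09, limma).

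Genes described as GLI targets in one tissue or another were called in 13 of 35 cases (37.1%, beside 47.1% of all genes), 5 higher and 8 lower. Their median log2 fold change of -0.20 is the value of SOX2, which had at most 1 read in any library. Many targets that were not called lay near the floor, such as FST, GREM1 and FOXF1 with at most 1, 1.69 and 3 reads. The share and the median of this role therefore say little about targets that were expressed. IGFBP3, which binds insulin-like growth factors, was at 2.95, 3.02 and 2.89 log2 CPM in shNC and 0.95, 1.45 and 1.34 in shSTIL, a log2 fold change of -1.70 ± 0.16 (SE; adjusted p = 7.96e-07, limma). IGFBP6, a protein of the same family, fell by 0.92 on the log2 scale (adjusted p = 1.54e-06, limma). JAG2, a Notch ligand, fell by 1.28 (adjusted p = 3.87e-07, limma) and CCNE1, a cyclin of the G1/S transition, fell by 1.09 (adjusted p = 2.44e-08, limma). OSR2, a zinc finger transcription factor, fell by 1.00 (adjusted p = 0.000313, limma). FOXD1, a forkhead transcription factor, moved the other way, from a mean of 5.93 log2 CPM in shNC to 6.91 in shSTIL, and rose by 0.98 ± 0.04 (adjusted p = 7.9e-10, limma). WNT2B, BMI1, FOXL1 and CCND1, beyond the 6 largest changes of this role, were also called higher (0.66, 0.58, 0.42 and 0.29). SOX9, RAB34 and JAG1 were called lower by less (-0.28, -0.23 and -0.22). Many of these genes have other regulators, and CCNE1 moved with the proliferation genes described above.

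The genes whose levels over the 6 libraries were most like those of GLI1 were sought among 11886 genes whose mean level reached 0 log2 CPM, by the root mean square difference after each gene was centred on its mean. They were CRIP2 (0.293), PPFIA4 (0.353), MAP1A (0.370), CBLN2 (0.396) and CSPG5 (0.406 on the log2 scale), with log2 fold changes between -2.72 and -1.98. CBLN2 had only 5 to 9 reads in the shSTIL libraries. For SMO the most alike were VPS37D (0.0117), TMOD3 (0.0192), CREBZF (0.0218), RXRA (0.0244) and ANKFY1 (0.0250), with log2 fold changes between -0.24 and -0.18. VPS37D, the closest, was not called (adjusted p = 0.0521, limma). The measure is not scaled to the size of a gene's change, so the values for GLI1 and for SMO are not comparable.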

How the data were processed

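RNA-seq of EJ cells gave 6 libraries, 3 shNC and 3 shSTIL. The authors mapped BGISEQ-500 reads with Bowtie2 and deposited estimated counts from RSEM, not normalized, for 15957 genes of 4 libraries. The authors also deposited log2 CPM of 15953 genes for all 6 libraries, computed with edgeR. The submitters' processing notes name hg38 and limma; versions were not given in the sources used here.

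The groups were compared in R 4.3.3 by limma 3.58.1, fitting the log2 CPM of the whole deposited table (lmFit, then eBayes with trend) and adjusting p-values by Benjamini-Hochberg over every gene. Genes were called at an adjusted p under 0.01. Fold changes are on the scale of log2 CPM with a prior count of 2, which understates changes of genes with few reads. Estimated reads were recovered from the log2 CPM, and 87.5 to 87.8% of values per library were whole within 0.01. The largest difference from the deposited estimated counts was 0.000501 reads. No such comparison was made for shNC replicates 2 and 3. The recovered reads were rounded for edgeR 4.0.16 (quasi-likelihood) and DESeq2 1.42.0, which were run as alternatives and called 7828 and 6782 genes. Single values were compared with exact two-sided permutation tests over 20 labellings. The fits were tested on simulated data, where limma missed more of the changed genes and made more false calls than edgeR. Positions and lengths came from GENCODE 29 and promoters from RefSeq.

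The members and lists were chosen with earlier results of these data known. Named were the members, STIL, called pathway genes with an absolute log2 fold change of at least 0.5 (at most 6 per role) and the 5 genes most like GLI1 and SMO. A gene of the pathway was left out of the lists and is not reported here.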

Additional observations from a re-analysis of the deposited data

How the results depend on the processing

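The count of 4 called core genes was the same under quantile normalization, median centring, a prior count of 0.5, edgeR, DESeq2 and a replicate block, fell to 3 without a mean-variance trend and to 3 in a fit restricted to genes whose mean reached 1 log2 CPM, which left out GLI1, and ranged from 1 to 3 when 1 library was left out. It was 1 without shNC replicate 2 and without shNC replicate 3. The 3 called without shNC replicate 1 were PTCH1, GLI2 and HHIP, and HHIP had at most 3 reads in any library. GLI1 and SMO lost their calls in that fit. Calls over all genes also fell then, from 7509 to between 4900 and 5638, since fewer libraries were used. Calls among the other pathway genes ranged from 38 to 41 with 1 library left out, against 51. The replicate block left 4 core genes, 49 other pathway genes and 6898 genes in all called, and of the named genes it lost only CDON (adjusted p = 0.01, limma). Deviations from the group means correlated between same-numbered libraries at -0.121, -0.055 and -0.107 over 11319 genes, and no library was most like its own number, so the numbers were not used as pairs. The directions of SHH and GPR161, near 0, turned: SHH was 0.0182 under quantile normalization and -0.0685 to 0.0052 with 1 library left out, and GPR161 was -0.0685 to 0.021 with 1 library left out, none past the threshold. Median centring moved all genes by -0.00881. Genes with few reads (HHIP, GLI1, GLI2 and PRKAR2B) are limited by depth.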
